A study of Mus musculus with 12 samples.

Results

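Levels of 9 synaptic adhesion genes were followed across 4 kinds of mouse brain library: the neurexins Nrxn2 and Nrxn3, the neuroligins Nlgn1, Nlgn2 and Nlgn3, the leucine-rich repeat proteins Lrrtm2 and Lrrc4b, and the latrophilins Adgrl1 and Adgrl3. They were chosen by name, with earlier results of these data known, and are 9 of the 41388 gene identifiers in the files. All 9 passed the filter on low counts, which kept 13364 genes. The mice were of the C57/Bl6 strain, at postnatal day 21, and carried Aldh1L1::RPL10a-eGFP, in which an astrocyte promoter drives a ribosomal protein fused to green fluorescent protein. In translating ribosome affinity purification (TRAP), antibodies to the tag recover these ribosomes and their bound mRNA. PAP TRAP (peripheral astrocyte process TRAP) is such a purification from synaptoneurosomes, the layer of a sucrose gradient that contains pinched-off synapses with fine processes around them, and synaptoneurosome input is that layer before purification. Cortex TRAP and cortex input are the purification from whole tissue and its starting lysate. Each of the 4 groups held 3 libraries, and all 12 carried the tag and had received cycloheximide at 1 ug/mL and TTX at 1 mM, per the labels, which name cortex and hippocampus as the tissue. The labels give 1 protocol for all libraries, and do not say how many animals were pooled or whether replicates came from separate animals. The p-values below therefore measure the spread between these libraries, which may be technical.

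Neurexins are presynaptic membrane proteins with many splice forms, and they bind neuroligins and Lrrtm proteins on the facing membrane. Latrophilins are adhesion receptors coupled to G proteins that bind teneurins and Flrt proteins, and Lrrc4b binds receptor tyrosine phosphatases of the LAR family. Neuroligins are best known from the postsynaptic side, and astrocytes also make them, where they take part in contact between astrocyte processes and neurons.

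Family members are told apart by sequence, which decides whether a read can be given to 1 of them. The stretches of 99 coding bases shown are those most like Nlgn1, Nrxn2 or Adgrl1 in each family, in frame and within 1 exon. Of the windows searched, reads of relatives would be least distinct there, yet 14 to 24 of the 99 bases differed in each pair. Nlgn2 and Nlgn3 were not matched to each other in this search, and bases outside the coding sequence were not searched. The stretches come from the longest coding transcript of each gene in GENCODE M21 (GRCm38), in reading direction. Capitals mark positions where the members shown do not all have the same base. The neuroligin stretch lies in exon 7 of each gene, at chr3:25436350-25436448 on the minus strand for Nlgn1, chr11:69827241-69827339 on the minus strand for Nlgn2, and chrX:101318123-101318221 on the plus strand for Nlgn3.
Nlgn1: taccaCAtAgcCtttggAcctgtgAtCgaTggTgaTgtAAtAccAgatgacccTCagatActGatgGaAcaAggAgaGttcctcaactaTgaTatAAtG
Nlgn2: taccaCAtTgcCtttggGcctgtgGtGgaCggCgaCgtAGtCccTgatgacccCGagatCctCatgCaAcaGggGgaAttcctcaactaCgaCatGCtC
Nlgn3: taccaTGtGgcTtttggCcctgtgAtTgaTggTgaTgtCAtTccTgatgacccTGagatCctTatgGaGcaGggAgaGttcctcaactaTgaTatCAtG
The neurexin stretch lies in exon 7 of Nrxn2, at chr19:6472312-6472410, and in exon 5 of Nrxn3, at chr12:89193100-89193198, both on the plus strand.
Nrxn2: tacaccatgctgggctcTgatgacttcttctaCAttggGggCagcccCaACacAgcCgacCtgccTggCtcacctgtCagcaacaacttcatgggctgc
Nrxn3: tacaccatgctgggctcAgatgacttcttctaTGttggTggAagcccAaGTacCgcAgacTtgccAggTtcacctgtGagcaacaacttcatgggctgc
The latrophilin stretch lies in exon 15 of Adgrl1, at chr8:83934508-83934606, and in exon 16 of Adgrl3, at chr5:81724143-81724241, both on the plus strand.
Adgrl1: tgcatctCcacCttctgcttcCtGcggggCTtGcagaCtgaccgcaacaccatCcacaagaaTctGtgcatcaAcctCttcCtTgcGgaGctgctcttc
Adgrl3: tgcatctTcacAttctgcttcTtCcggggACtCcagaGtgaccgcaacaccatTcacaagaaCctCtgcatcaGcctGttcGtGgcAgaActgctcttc
Within these stretches identity was 84.8% between Nlgn1 and Nlgn3, 76.8% between Nlgn1 and Nlgn2, 75.8% between Nlgn2 and Nlgn3, 85.9% between the neurexins and 82.8% between the latrophilins. Over whole coding sequences, the longest run of identical bases was 17 to 23 bases in each of these 5 pairs, against library fragments of about 200 bp. The neuroligin stretch itself held 56.6% G and C in Nlgn2, 46.5% in Nlgn3 and 42.4% in Nlgn1. The whole coding sequence held 62.7% G and C in Nlgn2 and 45.9% in Nlgn1, 62.6% in Nrxn2 and 52.5% in Nrxn3, and 58.3% in Adgrl1 and 50.3% in Adgrl3. On the opposite strand, other genes overlap 889 exonic bases of Nrxn2, 1229 of Nlgn1, 95 of Lrrtm2, 1107 of Adgrl1 and 1582 of Adgrl3, and the strand setting of the counts is unknown here.

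The deposited values are read counts per gene. Gene counts ranged from 4918113 to 17553985 per library. Transcripts of the mitochondrial chromosome took 35.6% to 47.6% of them in PAP TRAP, 83.8% to 91.9% in synaptoneurosome input, 1.03% to 1.28% in cortex TRAP and 44.8% to 50.2% in cortex input. Nuclear genes kept 1423296 to 7777763 counts, fewest in synaptoneurosome input. Reads given to no gene were 52.9% in PAP TRAP replicate 2 and 55.5% in cortex TRAP replicate 2, above the 20.3% to 44.5% of the other 10 libraries. The lowest count of any member was 129 (Lrrc4b in synaptoneurosome input replicate 1) and the highest was 10516 (Adgrl1 in PAP TRAP replicate 3). The 10 astrocyte markers (such as Slc1a2, Glul and Aqp4) together held 4.85% to 9.53% of nuclear counts in PAP TRAP, 4.01% to 4.87% in synaptoneurosome input, 6.88% to 10.1% in cortex TRAP and 0.790% to 0.877% in cortex input. All 10 were higher in cortex TRAP than in cortex input, and 3 of 10 were higher in PAP TRAP than in synaptoneurosome input. Slc1a2 weighed most in the sum, with mean normalized CPM of 29400, 17830, 22977 and 2358 in these groups. Against cortex TRAP it was not called in PAP TRAP (adjusted p = 0.27), whereas 8 of the 10 astrocyte markers were lower. Among these were Glul (2518 against 6038 normalized CPM) and Aqp4 (170 against 415). The 10 neuron markers (such as Slc17a7, Snap25 and Gad1) held 0.384% to 0.566% in PAP TRAP, 1.03% to 1.43% in synaptoneurosome input, 0.187% to 0.295% in cortex TRAP and 1.71% to 1.90% in cortex input. Snap25 weighed most in this sum, with mean normalized CPM of 903, 2424, 844 and 4640 in these groups. Against synaptoneurosome input, PAP TRAP was lower for Snap25 and Syt1 only. Slc17a7 (334 against 408 normalized CPM, adjusted p = 0.579) and Gad1 (35.2 against 34.8, adjusted p = 0.992) were not called there. None of these 20 markers was at 0 in any library.

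Against cortex TRAP, 8 of the 9 genes were higher in PAP TRAP and none was lower, where 33.9% of all genes tested were called (19.3% higher and 14.6% lower). The same 8 did not overlap between groups (22.2% of all genes were higher without overlap), and all 8 calls held when any 1 of the 12 libraries was left out. With offsets corrected for G and C content 7 calls remained, all but that of Nrxn2, where 19.5% of all genes were called higher. Against synaptoneurosome input, none of the 9 was called in PAP TRAP by the edgeR quasi-likelihood test at an adjusted p under 0.05, where 4.53% of all genes were called (3% higher and 1.53% lower). Without adjustment, 3 of the 9 had a p under 0.05 there (20.1% of all genes did), and DESeq2 called 2, Nlgn1 and Lrrtm2, both lower, where it called 9.38% of all genes (4.24% lower). These 2 were also lower in every PAP TRAP library than in any synaptoneurosome input, as were 9.39% of all genes. In synaptoneurosome input, 8 of 9 were higher than in cortex input, where 9.32% of all genes were called (7.26% higher and 2.07% lower). In cortex TRAP, 4 of 9 were lower than in cortex input and none was higher, where 35.4% of all genes were called (15.9% higher and 19.5% lower). Set against cortex input, PAP TRAP was higher for 4 of 9 (10.6% of all genes were called higher and 5.31% lower). Enrichment over input means here the log2 change from input to TRAP, which can be negative. It was higher in the synaptoneurosome layer than in whole tissue for 3 of 9 (20.2% of all genes were called in this difference of enrichments, 12.9% higher and 7.32% lower). These 3 (Nrxn3, Lrrtm2 and Adgrl1) were called lower in cortex TRAP against cortex input, and none was called in PAP TRAP against synaptoneurosome input. Lrrc4b was the 1 gene of the 9 that was called in no comparison. These are bulk libraries, in which fewer cells of a type and less RNA per cell cannot be told apart.

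**Figure D1:**
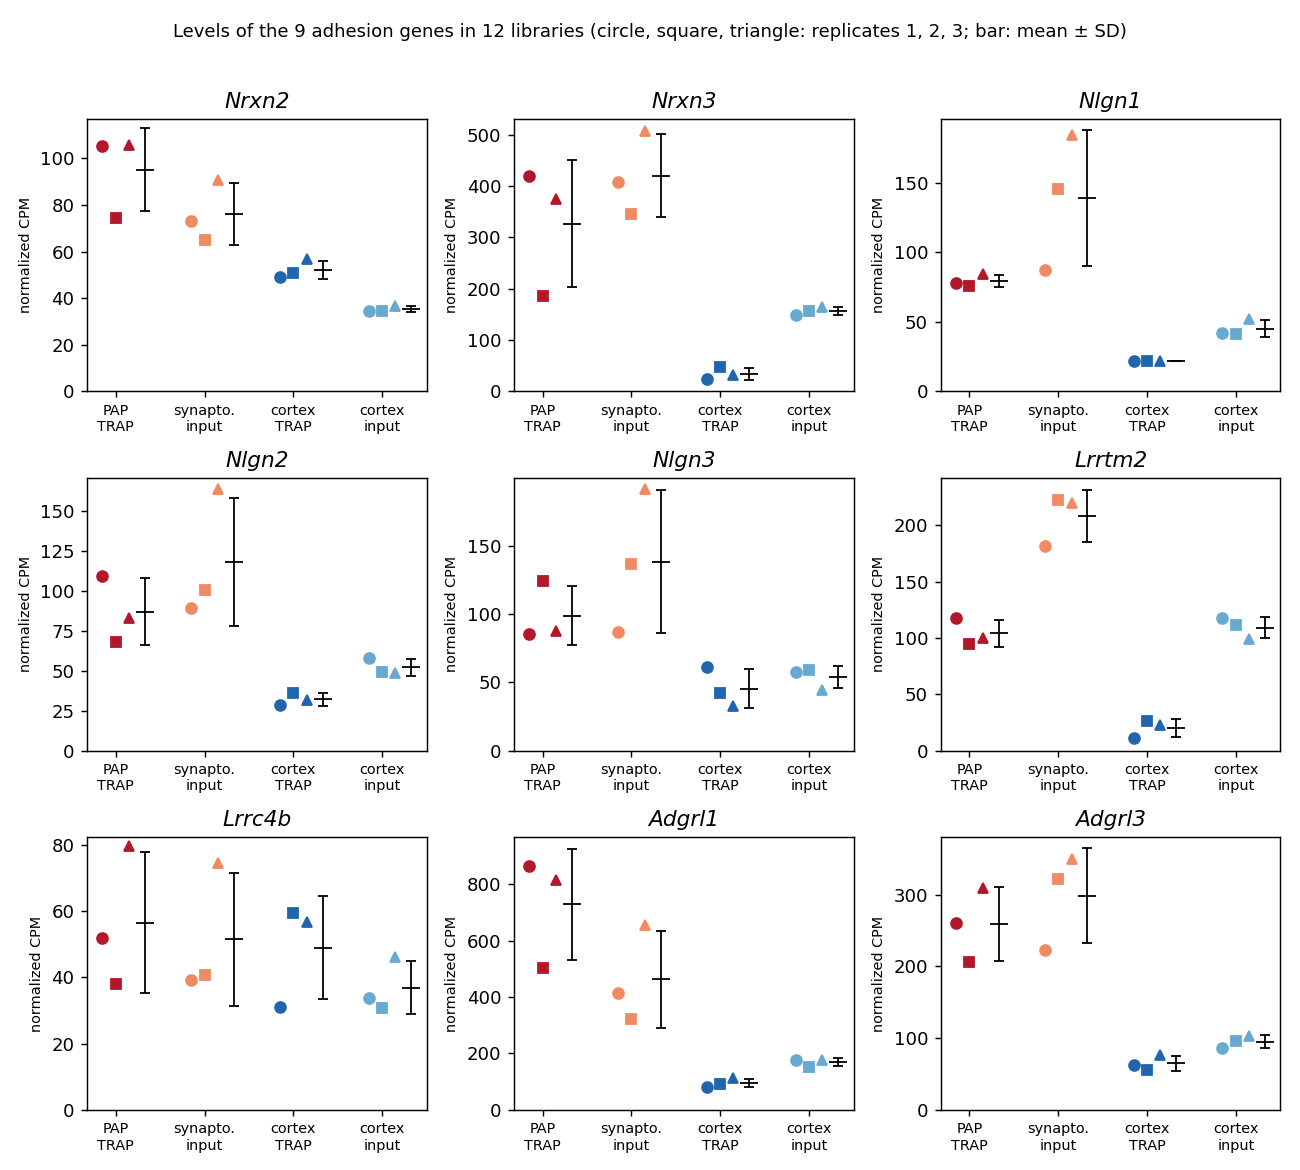
Level of each of the 9 genes in each library, in normalized CPM (scaled by TMM; linear axes from 0 that differ between genes), by group; symbols mark replicates 1 to 3 and the bar is the mean ± SD of 3 libraries. The 3 PAP TRAP libraries sit above the 3 cortex TRAP libraries in every panel except that of Lrrc4b, and overlap synaptoneurosome input in every panel except those of Nlgn1 and Lrrtm2.

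Mean levels were highest in synaptoneurosome input for 6 genes and in PAP TRAP for the other 3 (Nrxn2, Lrrc4b and Adgrl1). They were lowest in cortex TRAP for 7 genes and in cortex input for Nrxn2 and Lrrc4b. Per kb of exon, Adgrl1 was the most abundant of the 9 in PAP TRAP, at 85.0 ± 22.8 normalized CPM per kb (SD, n = 3), followed by Nrxn3 at 25.9 ± 9.84 and Lrrc4b at 19.3 ± 7.26. Nrxn2, at 6.89 ± 1.30, and Nlgn1, at 5.90 ± 0.318, were the least abundant there. In cortex TRAP the order began with Lrrc4b, at 16.7 ± 5.32 normalized CPM per kb, and Adgrl1, at 11.1 ± 1.75, and ended with Nrxn3, at 2.68 ± 0.929, and Nlgn1, at 1.62 ± 0.0195. Nrxn3 thus held the second place of the 9 in PAP TRAP and the last but one in cortex TRAP. Together the 9 genes held 0.276% to 0.426% of nuclear counts in PAP TRAP, 0.369% to 0.510% in synaptoneurosome input, 0.0839% to 0.107% in cortex TRAP and 0.209% to 0.217% in cortex input.

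The neurexins are the presynaptic receptors of the system. Nrxn3 (chromosome 12, GRCm38 88722876 to 90334935, plus strand) stood at 419, 185 and 375 normalized CPM in PAP TRAP replicates 1 to 3, against 23.5, 46.5 and 31.5 in cortex TRAP. Synaptoneurosome input held 407, 346 and 507, and cortex input 149, 155 and 165. Every library of the synaptoneurosome layer was above every whole-tissue library, and PAP TRAP replicate 2 was the lowest of the layer. Nrxn3 rose 9.66-fold in PAP TRAP over cortex TRAP (95% interval 6.01 to 15.5, adjusted p = 2.53e-07, edgeR quasi-likelihood test with Benjamini-Hochberg adjustment over all genes tested, as for every adjusted p here). It fell in cortex TRAP against cortex input by 2.21 ± 0.31 on the log2 scale (± SE, adjusted p = 1.58e-05). Between PAP TRAP and synaptoneurosome input the change was -0.36 ± 0.30 on the log2 scale (adjusted p = 0.549). Enrichment over input differed between the layer and whole tissue by 1.84 ± 0.43 on the log2 scale (adjusted p = 0.00423). The input of the layer was above cortex input by 1.43 ± 0.30 (adjusted p = 0.00504). Against cortex input, PAP TRAP was 1.06 ± 0.30 higher on the log2 scale (adjusted p = 0.0211), a call that was lost without any 1 of the 3 cortex inputs or without PAP TRAP replicate 1 or 3 (adjusted p 0.0641 to 0.0974).

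Nrxn2 (chromosome 19, 6418731 to 6544169, plus strand) gave a different order of groups. Its levels were 105, 74.5 and 106 normalized CPM in PAP TRAP, 73.2, 64.8 and 90.7 in synaptoneurosome input, 49.1, 50.8 and 56.7 in cortex TRAP, and 34.5, 34.6 and 36.7 in cortex input. The 2 TRAP groups were each above their own input in mean, and PAP TRAP and synaptoneurosome input overlapped. Nrxn2 rose 1.82-fold in PAP TRAP over cortex TRAP (95% interval 1.26 to 2.64, adjusted p = 0.0133). With offsets corrected for base composition this change was 0.31 on the log2 scale and the call was lost (adjusted p = 0.384). In cortex TRAP against cortex input its change was 0.57 ± 0.25 on the log2 scale (adjusted p = 0.0938), the opposite sign to that of Nrxn3. Nrxn2 was higher in PAP TRAP than in cortex input by 1.43 ± 0.26 on the log2 scale (adjusted p = 0.000662). In synaptoneurosome input it was 1.11 ± 0.26 above cortex input (adjusted p = 0.00929), a call that was lost without cortex input replicate 1 (adjusted p = 0.0604) or 2 (adjusted p = 0.0584).

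The balance between both neurexins, taken within each library and per kb of exon, does not depend on scaling, but it was not corrected for base composition. The log2 ratio of Nrxn2 to Nrxn3 was -2.12, -1.45 and -1.96 in PAP TRAP, -2.61, -2.55 and -2.61 in synaptoneurosome input, 0.93, -0.0041 and 0.71 in cortex TRAP, and -2.24, -2.30 and -2.30 in cortex input. In cortex TRAP alone among the 4 groups Nrxn2 was about level with Nrxn3 or above it. PAP TRAP was 2.39 below cortex TRAP on this log2 ratio, without overlap (exact two-sided permutation p = 0.1, the smallest that 3 against 3 libraries can give, and 0.2 after adjustment over the 4 ratios tested).

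**Figure D2:**
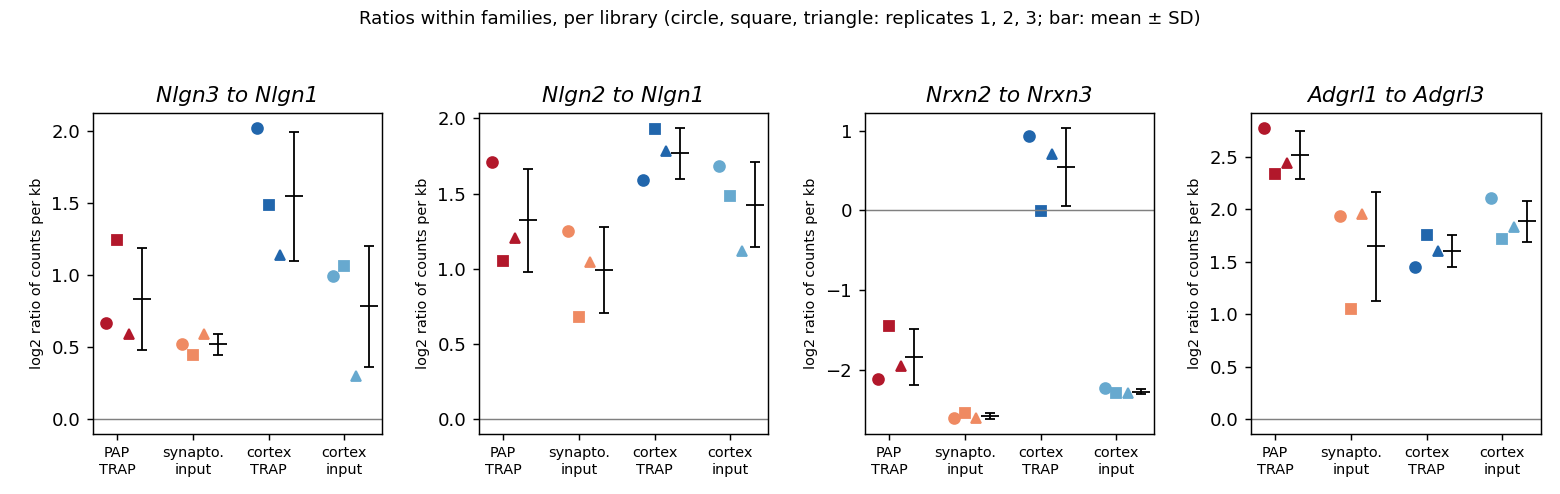
Log2 ratio of counts per kb between family members in each library, by group, with symbols for replicates 1 to 3 and the mean ± SD of 3 libraries; the horizontal line at 0 marks equal counts per kb. The ratio of Nrxn2 to Nrxn3 lies between -0.0041 and 0.93 in cortex TRAP and at -1.45 or lower in the other 3 groups. The neuroligin ratios of PAP TRAP and cortex TRAP overlap, whereas those of synaptoneurosome input lie below all cortex TRAP libraries.

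The neuroligins bind neurexins: Nlgn1 is known mainly from excitatory synapses, Nlgn2 from inhibitory ones, and Nlgn3 from both. Nlgn1 (chromosome 3, 25426215 to 26332460, minus strand) had 77.7, 75.9 and 84.0 normalized CPM in PAP TRAP against 21.8, 22.0 and 21.5 in cortex TRAP, replicates that lie close together within each group. Synaptoneurosome input held 87.5, 145 and 184, all above the 3 PAP TRAP libraries, and cortex input 42.1, 41.1 and 52.2. Nlgn1 rose 3.64-fold in PAP TRAP over cortex TRAP (95% interval 2.42 to 5.49, adjusted p = 4.35e-05). It fell in cortex TRAP against cortex input by 1.05 ± 0.28 on the log2 scale (adjusted p = 0.0055), where Nlgn2 changed by -0.70 ± 0.28 (adjusted p = 0.0614). With offsets corrected for base composition the change of Nlgn1 was -0.45 and the call was lost (adjusted p = 0.268). Relative to synaptoneurosome input, its change in PAP TRAP was -0.81 ± 0.28 on the log2 scale (adjusted p = 0.102 by edgeR and adjusted p = 0.0262 by DESeq2).

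Nlgn2 (chromosome 11, 69823122 to 69837784, minus strand) had 109.5, 67.9 and 83.3 normalized CPM in PAP TRAP, 89.6, 100.3 and 164 in synaptoneurosome input, 28.3, 36.1 and 31.9 in cortex TRAP, and 58.2, 49.5 and 48.9 in cortex input. The 4 groups kept the order seen for Nlgn1, and PAP TRAP overlapped synaptoneurosome input. It rose 2.71-fold in PAP TRAP over cortex TRAP (95% interval 1.79 to 4.11, adjusted p = 0.000736). Nlgn3 (chromosome X, 101299168 to 101325963, plus strand) had 85.3, 124 and 87.4 normalized CPM in PAP TRAP, 86.9, 137 and 192 in synaptoneurosome input, 61.2, 42.5 and 32.6 in cortex TRAP, and 57.9, 59.4 and 44.4 in cortex input. For Nlgn3 the cortex TRAP and cortex input libraries overlapped, with a change of -0.25 ± 0.31 on the log2 scale (adjusted p = 0.578). It rose 2.18-fold in PAP TRAP over cortex TRAP (95% interval 1.38 to 3.44, adjusted p = 0.00985). Of the exonic bases of Nlgn3, 3823 of 9271 are also annotated to Gm21986 on the same strand, and reads there could have been left out of its count.

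All 3 neuroligins were higher in synaptoneurosome input than in cortex input, by 1.62 ± 0.28 for Nlgn1, 1.18 ± 0.29 for Nlgn2 and 1.36 ± 0.32 for Nlgn3 on the log2 scale (adjusted p = 0.000904, 0.0128 and 0.00945). Without cortex input replicate 3 or synaptoneurosome input replicate 3 the calls of Nlgn2 (adjusted p = 0.071 and 0.0751) and Nlgn3 (adjusted p = 0.0694 and 0.0542) were lost, and without cortex input replicate 2 that of Nlgn2 (adjusted p = 0.0747). In the difference of enrichments none of the 3 was called, with changes of 0.24, 0.26 and -0.24 on the log2 scale. Per kb of exon, the share of Nlgn2 among the 3 was 47.3% ± 8.85 in PAP TRAP, 45.0% ± 4.47 in synaptoneurosome input, 46.4% ± 7.95 in cortex TRAP and 49.5% ± 2.14 in cortex input (SD, n = 3). The share of Nlgn1 was 18.7% ± 1.90 in PAP TRAP, 22.6% ± 2.31 in synaptoneurosome input, 13.5% ± 1.37 in cortex TRAP and 18.6% ± 3.57 in cortex input, and that of Nlgn3 was 34.0% ± 8.50 in PAP TRAP, 32.4% ± 2.31 in synaptoneurosome input, 40.1% ± 9.08 in cortex TRAP and 31.9% ± 3.78 in cortex input. Nlgn3 was above Nlgn2 in PAP TRAP replicate 2 and cortex TRAP replicate 1. The order of these 2 depends on the length used for Nlgn3: divided by the 5448 exonic bases it does not share with Gm21986, its mean share was above that of Nlgn2 in every group (46.4% against 38.4% in PAP TRAP, 44.9% against 36.7% in synaptoneurosome input, 52.9% against 36.5% in cortex TRAP and 44.3% against 40.5% in cortex input). The log2 ratio of Nlgn3 to Nlgn1 averaged 0.83 ± 0.36 in PAP TRAP and 1.55 ± 0.45 in cortex TRAP, a difference of -0.71. That of Nlgn2 to Nlgn1 averaged 1.32 ± 0.34 in PAP TRAP and 1.77 ± 0.17 in cortex TRAP, a difference of -0.45. PAP TRAP and cortex TRAP overlapped in both ratios (exact two-sided permutation p = 0.2 each, where 3 against 3 libraries cannot go below 0.1). Synaptoneurosome input lay below all cortex TRAP libraries in both ratios, a difference that was not tested.

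Lrrtm2, a postsynaptic ligand of neurexins at excitatory synapses, is a gene on chromosome 18. It had 117, 94.8 and 99.8 normalized CPM in PAP TRAP, 181, 223 and 219.8 in synaptoneurosome input, 11.1, 26.6 and 23.1 in cortex TRAP, and 117, 111 and 99.2 in cortex input. PAP TRAP overlapped cortex input (log2 change -0.07 ± 0.28, 95% interval -0.66 to 0.52), and lay below all synaptoneurosome inputs and above all cortex TRAP libraries. Lrrtm2 rose 5.14-fold in PAP TRAP over cortex TRAP (95% interval 3.33 to 7.92, adjusted p = 5.01e-06). Its fall in cortex TRAP against cortex input, by 2.43 ± 0.30 on the log2 scale, was the largest of the 9 (adjusted p = 2.85e-06). Its change in PAP TRAP against synaptoneurosome input was -1.0 ± 0.29 on the log2 scale, just outside the threshold (adjusted p = 0.0506 by edgeR and 0.0108 by DESeq2). Enrichment over input differed between the layer and whole tissue by 1.43 ± 0.40 on the log2 scale (adjusted p = 0.0156), or by 1.19 with offsets corrected for base composition, where the call was lost (adjusted p = 0.0543). In synaptoneurosome input against cortex input it was higher by 0.93 ± 0.28 on the log2 scale (adjusted p = 0.0459), a call that was lost when any of 8 of the 12 libraries was left out (adjusted p 0.0546 to 0.182).

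Lrrc4b (chromosome 7, 44429018 to 44463351, plus strand), a postsynaptic partner of LAR phosphatases, stood apart from the other 8 in that the groups overlapped throughout. Its levels were 51.9, 37.9 and 79.7 normalized CPM in PAP TRAP, 39.2, 40.6 and 74.5 in synaptoneurosome input, 31.0, 59.3 and 56.6 in cortex TRAP, and 33.7, 30.8 and 46.0 in cortex input. In PAP TRAP against cortex TRAP the change was 0.21 ± 0.35 on the log2 scale (95% interval -0.53 to 0.94, adjusted p = 0.677). Against synaptoneurosome input it was 0.13 ± 0.35 (95% interval -0.61 to 0.87, adjusted p = 0.887). These intervals leave room for a change of nearly 1 on the log2 scale, and both signs turned with offsets corrected for base composition, to -0.36 and -0.32.

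The latrophilins are receptors for teneurins and Flrt proteins. Adgrl1 (chromosome 8, 83900105 to 83941954, plus strand) reached 867, 505 and 817 normalized CPM in PAP TRAP, against 82.0, 91.4 and 111 in cortex TRAP. Synaptoneurosome input held 414, 323 and 656, and cortex input 178, 152 and 178. Every library of the layer was above every whole-tissue library, and PAP TRAP replicate 2 lay inside the range of the synaptoneurosome inputs. Adgrl1 rose 7.68-fold in PAP TRAP over cortex TRAP (95% interval 5.02 to 11.8, adjusted p = 2.5e-07) and fell in cortex TRAP against cortex input by 0.84 ± 0.28 on the log2 scale (adjusted p = 0.0228). Its enrichment over input differed between the layer and whole tissue by 1.49 ± 0.39 on the log2 scale (adjusted p = 0.00971). Relative to cortex input, it was 4.30-fold higher in PAP TRAP (adjusted p = 3.7e-05) and 2.74-fold higher in synaptoneurosome input (adjusted p = 0.00214). Its change in PAP TRAP against synaptoneurosome input, 0.65 ± 0.27 on the log2 scale, was the largest positive one of the 9 and did not pass (adjusted p = 0.185).

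Adgrl3 (chromosome 5, 81020138 to 81825133, plus strand) had 261, 206 and 309.6 normalized CPM in PAP TRAP, 224, 322 and 349.9 in synaptoneurosome input, 61.9, 56.0 and 76.0 in cortex TRAP, and 85.6, 95.9 and 103 in cortex input. Both groups of the synaptoneurosome layer were above both whole-tissue groups, and overlapped each other. It rose 4.01-fold in PAP TRAP over cortex TRAP (95% interval 2.76 to 5.81, adjusted p = 5.88e-06), and 3.15-fold in synaptoneurosome input over cortex input (95% interval 2.18 to 4.55, adjusted p = 3e-04). Its change in cortex TRAP against cortex input was -0.55 ± 0.25 on the log2 scale (adjusted p = 0.092). The log2 ratio of Adgrl1 to Adgrl3 per kb of exon was 2.78, 2.34 and 2.45 in PAP TRAP, 1.94, 1.05 and 1.95 in synaptoneurosome input, 1.45, 1.75 and 1.60 in cortex TRAP, and 2.11, 1.72 and 1.84 in cortex input. PAP TRAP libraries were above all others on this ratio. Like the other ratios, it was not corrected for base composition (59.1% G and C in Adgrl1 and 46.5% in Adgrl3). The difference from cortex TRAP was 0.92 (exact two-sided permutation p = 0.1, the smallest possible, and 0.2 after adjustment).

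**Figure D3:**
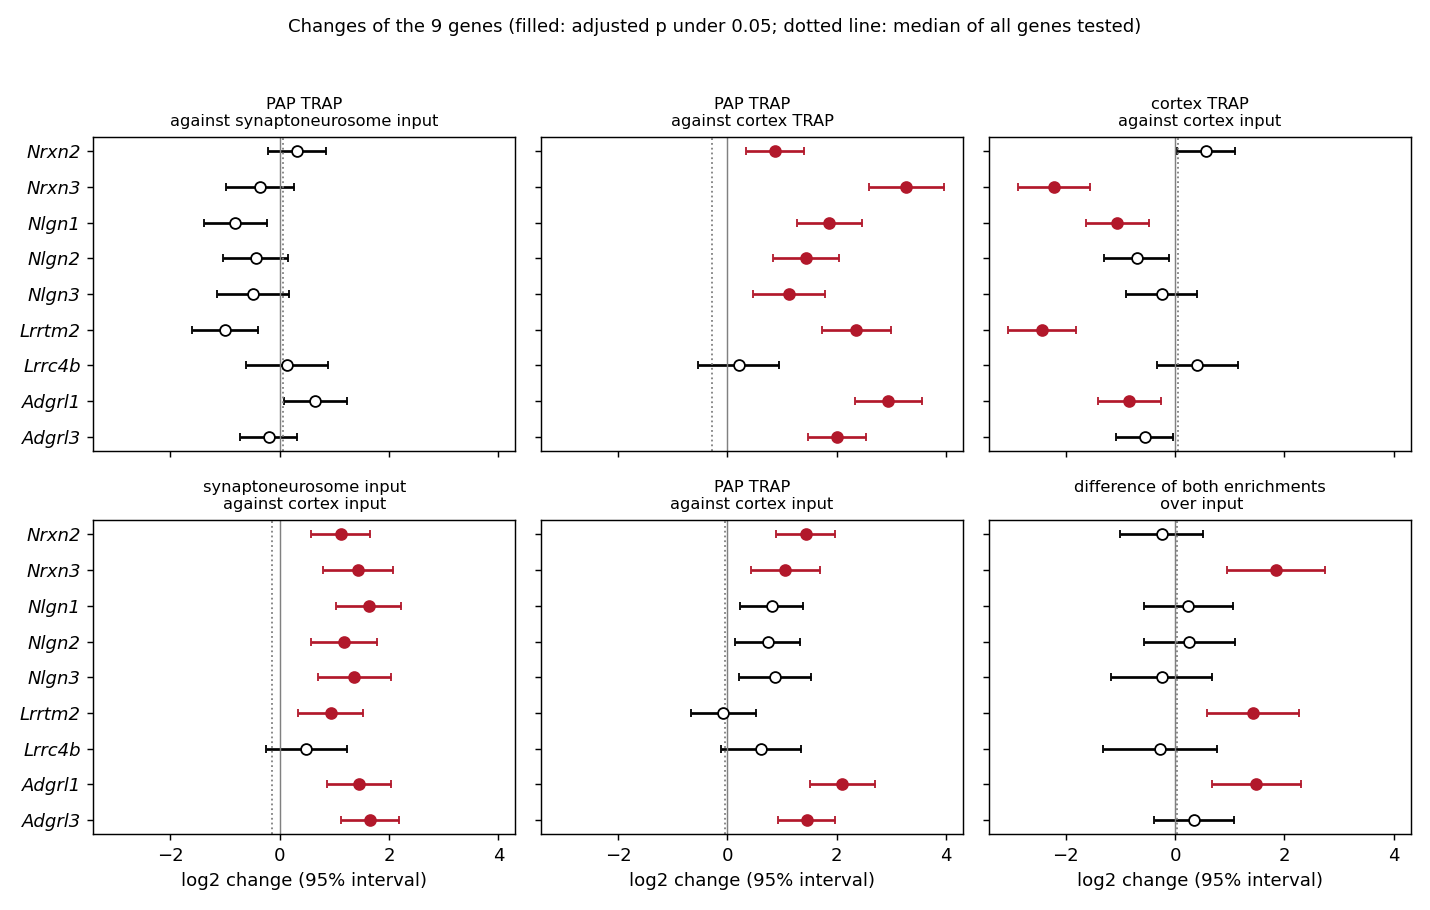
Log2 change of the 9 genes in the 6 comparisons, with 95% intervals from the edgeR fit of all 12 libraries (3 per group); filled red points have an adjusted p under 0.05, the solid line is 0 and the dotted line is the median of the 13364 genes tested. Points against cortex TRAP (top middle) all lie to the right of the dotted line, from 0.21 for Lrrc4b to 3.27 for Nrxn3, and no point in the comparison with synaptoneurosome input (top left) is filled.

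The 9 genes differ widely in base composition, and some of their changes went with it. The longest transcript held 63.1% G and C in Lrrc4b, 62.4% in Nrxn2, 60.7% in Nlgn2 and 59.1% in Adgrl1, against 38.9% in Nlgn1 and 38.4% in Lrrtm2, with Nlgn3 (49.3%), Nrxn3 (47.5%) and Adgrl3 (46.5%) between. In PAP TRAP against synaptoneurosome input, the 3 positive changes belonged to Lrrc4b, Nrxn2 and Adgrl1, and the most negative belonged to Lrrtm2 and Nlgn1. Pearson's r between change and G and C content was 0.797 over the 9 genes in that comparison, beside 0.155 over 13288 genes with a value. In cortex TRAP against cortex input it was 0.709 over the 9 and 0.111 over all. Genes are not independent replicates, so these are descriptions of the same 12 libraries. With offsets corrected for composition, the change in PAP TRAP against synaptoneurosome input was -0.43 for Nlgn1, -0.60 for Lrrtm2, -0.14 for Nrxn2 and -0.86 for Nlgn2 on the log2 scale, and none of the 9 was called. Against cortex TRAP the corrected changes were 3.35 for Nrxn3, 2.66 for Adgrl1, 2.32 for Lrrtm2 and 2.08 for Adgrl3, and 7 of the 8 calls remained, all but that of Nrxn2.

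**Figure D4:**
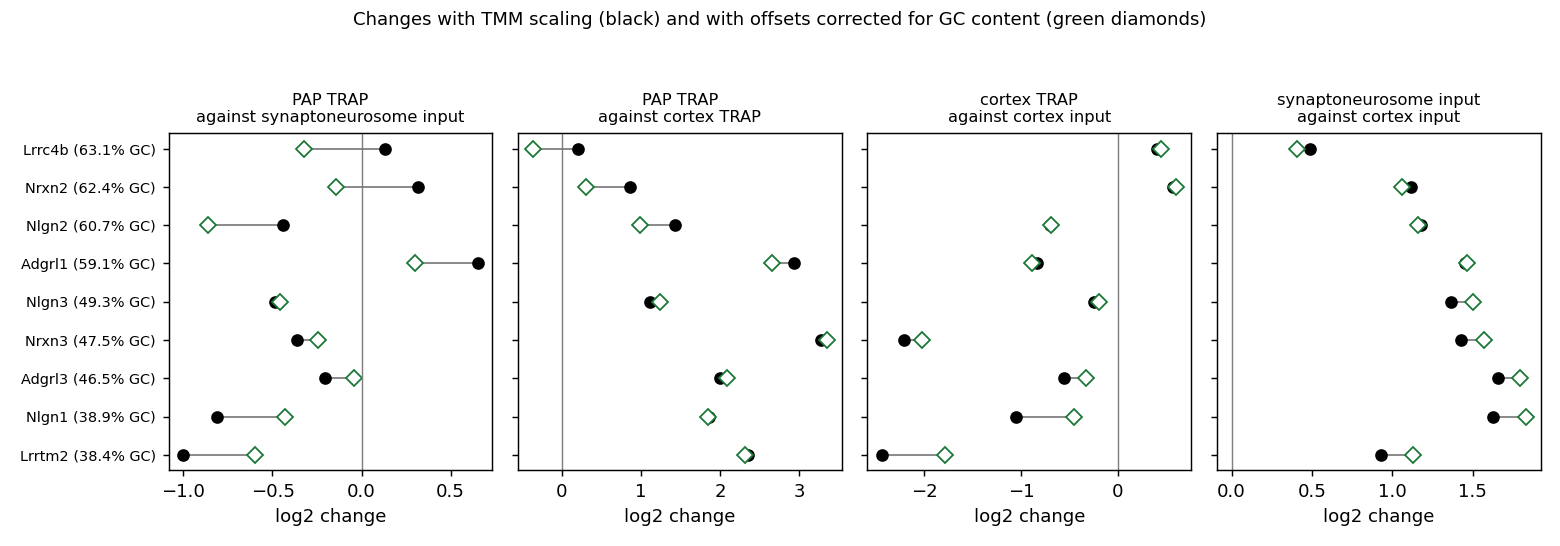
Log2 change of the 9 genes, ordered by the G and C content of the longest transcript (percent in brackets), with TMM scaling (black) and with offsets corrected for G and C content by loess per library (green diamonds); horizontal axes differ between panels. Values of genes rich in G and C move left and those of genes poor in it move right in the comparison of PAP TRAP with synaptoneurosome input, where Nrxn2 goes to -0.14 and Lrrtm2 to -0.60.

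Among 53 other adhesion partners of the same synaptic system (52 tested; Efnb1, with at most 19 counts in a library, was not), 40 were higher in PAP TRAP than in cortex TRAP and none was lower, with a median log2 change of 2.46. The median was 1.87 for the 9 genes and -0.28 for all genes tested, of which 19.3% were called higher and 14.6% lower. Those named by smallest p were Clstn2 and Clstn1, calsyntenins of the cadherin superfamily, and Epha4, an ephrin receptor, with a log2 change of 3.40 ± 0.26 for Clstn1. Clstn2 averaged 156 ± 39.7 normalized CPM in PAP TRAP and 2.76 ± 1.56 in cortex TRAP (SD, n = 3), a log2 change of 5.84 ± 0.42 (adjusted p = 4.28e-09). Epha4 averaged 226 ± 96.6 in PAP TRAP and 8.30 ± 0.268 in cortex TRAP, a log2 change of 4.76 ± 0.35 (adjusted p = 4.82e-09). Against synaptoneurosome input, none of the 52 was higher in PAP TRAP and 3 were lower, with a median of -0.41 (3% of all genes were higher and 1.53% lower). Cadm2, a nectin-like adhesion protein, averaged 510.2 ± 41.7 normalized CPM in PAP TRAP and 1151 ± 147 in synaptoneurosome input, a log2 change of -1.17 ± 0.22 (adjusted p = 0.00497), and Unc5d, a netrin and Flrt receptor, changed by -1.65 ± 0.31 (adjusted p = 0.00594).

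In cortex TRAP against cortex input, 34 of the 52 partners were lower and 6 higher (median -1.90), where 19.5% of all genes were lower and 15.9% higher. Those that fell with the smallest p were Clstn2, with a log2 change of -4.65 ± 0.40 (adjusted p = 4.42e-08), Epha4, with -3.89 ± 0.34 (adjusted p = 4.42e-08), and Unc5d, with -3.59 ± 0.34 (adjusted p = 1.43e-07). The partners that rose there include Sparcl1, a protein secreted by astrocytes that is known to bridge neurexins and neuroligins, at 2099 ± 329.97 normalized CPM in cortex TRAP and 186 ± 24.6 in cortex input (adjusted p = 6.95e-09). Dag1, the dystroglycan of astrocyte endfeet and a neurexin ligand, rose by 1.61 ± 0.31 on the log2 scale (adjusted p = 0.000376), and Cadm1 by 0.98 ± 0.26 (adjusted p = 0.00639). These 3 were the partners with smaller enrichment over input in the synaptoneurosome layer than in whole tissue, with differences of -2.94 for Sparcl1, -1.40 for Dag1 and -1.40 for Cadm1 on the log2 scale, whereas 23 of 52 had a larger one, by 4.07 for Clstn2, 3.70 for the latrophilin ligand Tenm2 and 3.58 for Epha4. Of all genes, 12.9% had a larger and 7.32% a smaller one. In synaptoneurosome input against cortex input, 26 of 52 were higher and none lower (median 1.22), where 7.26% of all genes were higher and 2.07% lower. The partners were led by Sparcl1 (2.89 ± 0.25), the neural adhesion protein Ncam1 (2.37 ± 0.23) and Clstn1 (1.80 ± 0.24). In PAP TRAP against cortex input, 18 of 52 were higher and none lower (median 0.84), by 3.44 ± 0.25 on the log2 scale for Sparcl1 and 1.69 ± 0.23 for Ncam1 (10.6% of all genes were higher and 5.31% lower). The teneurin Tenm3, a latrophilin ligand, stood at 148 ± 36.2 normalized CPM in PAP TRAP and 41.2 ± 7.24 in cortex input (adjusted p = 9.34e-05).

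The 22 intracellular partners are scaffolds, adaptors and a vesicle protein from the complexes on the cytoplasmic side of these receptors. Against synaptoneurosome input, 9 of 22 were higher in PAP TRAP and 1 was lower, with a median log2 change of 0.66, beside a median of -0.36 for the 9 adhesion genes. The difference between the lists was not tested. Dlgap3, a postsynaptic density scaffold, averaged 125 ± 20.6 normalized CPM in PAP TRAP and 25.0 ± 5.22 in synaptoneurosome input (adjusted p = 0.000548). Shank3, which links Dlgap proteins to the cytoskeleton, averaged 328 ± 92.0 in PAP TRAP and 68.8 ± 8.01 in synaptoneurosome input (adjusted p = 0.000583), and Shank2 averaged 1071 ± 257 in PAP TRAP and 351 ± 84.4 in synaptoneurosome input (adjusted p = 0.00204). The 1 that fell was Syt1, the calcium sensor of synaptic vesicles and also a neuron marker here, by 1.12 ± 0.23 on the log2 scale (adjusted p = 0.0101). Against cortex TRAP, 16 of 22 were higher in PAP TRAP, with log2 changes of 5.42 ± 0.31 for Shank2, 5.35 ± 0.34 for Shank1 and 4.66 ± 0.29 for Dlg2. Gphn, the scaffold of inhibitory synapses that binds neuroligins, fell by 1.01 ± 0.36 (adjusted p = 0.0387), and the adaptor Lin7c fell by 0.79 ± 0.24 (adjusted p = 0.0177). In cortex TRAP against cortex input 16 of 22 were lower, among them the adaptor Lin7a (-3.48 ± 0.31 on the log2 scale), Dlg2 (-3.30 ± 0.27) and Syt1 (-2.78 ± 0.25), and 1 was higher (Lin7c, 0.97 ± 0.24). In synaptoneurosome input against cortex input 4 were higher, among them Shank1 (2.04 ± 0.30), Syt1 (1.33 ± 0.23) and Shank2 (1.03 ± 0.26), and 1 was lower (the scaffold Dlg3, -1.35 ± 0.37). In PAP TRAP against cortex input 10 were higher, among them Shank3 (3.33 ± 0.32), Shank1 (3.21 ± 0.31) and Shank2 (2.64 ± 0.27), and 1 was lower (Lin7a, -1.27 ± 0.29). The enrichment over input was larger in the synaptoneurosome layer for 16 of 22 and smaller for none, with differences of 4.63 for Dlgap3, 4.46 for Dlg2 and 4.39 for Shank2 on the log2 scale. Shares of all genes called higher and lower follow in the order of comparisons in this paragraph. They were 3% and 1.53%, 19.3% and 14.6%, 15.9% and 19.5%, 7.26% and 2.07%, 10.6% and 5.31%, and 12.9% and 7.32%.

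**Figure D5:**
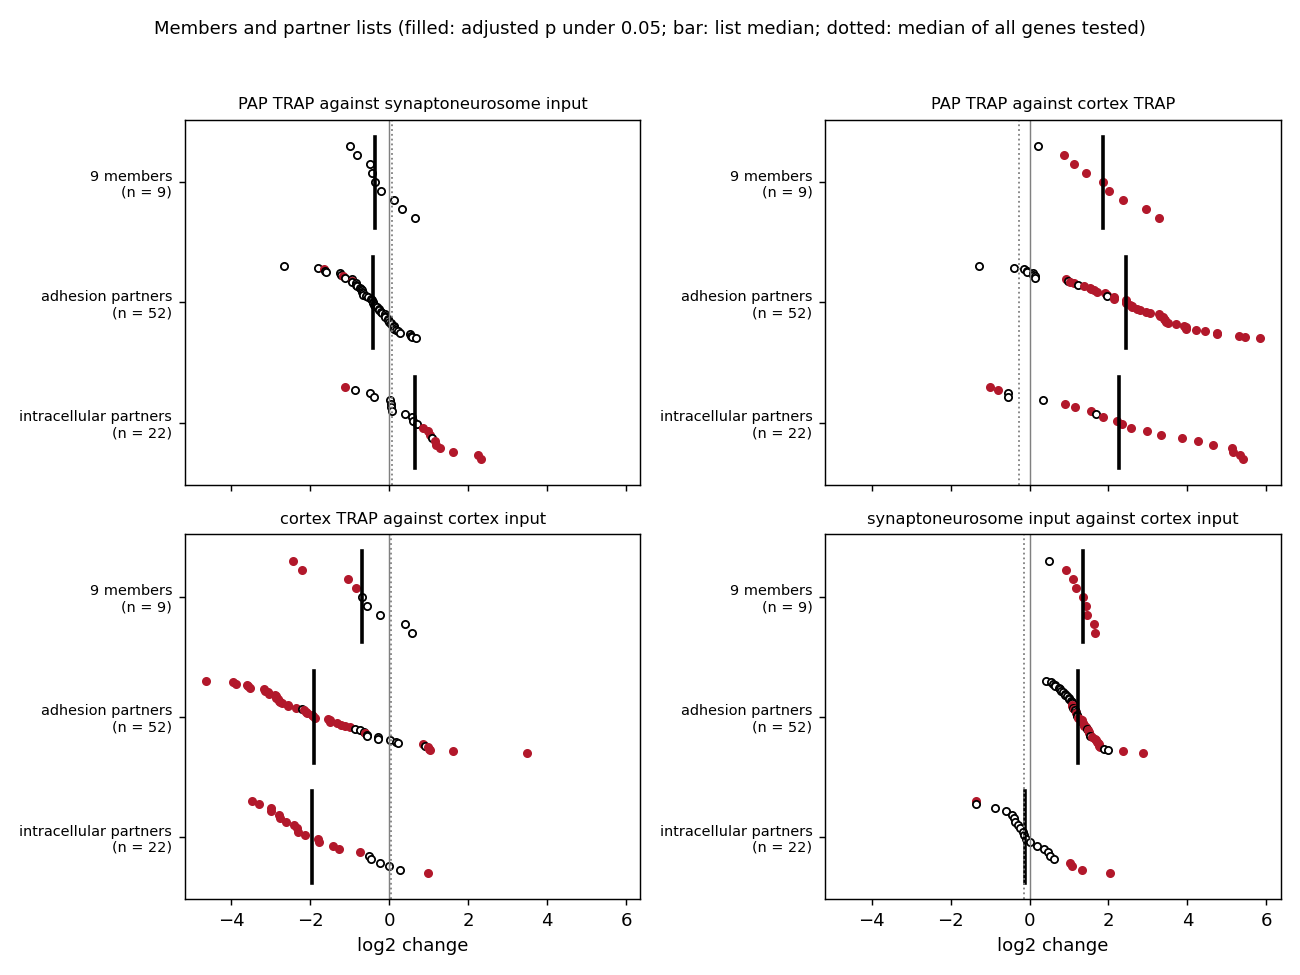
Log2 change of each gene of 3 lists in 4 comparisons (9 members of the adhesion set, 52 other adhesion partners and 22 intracellular partners tested), each point a gene and red where the adjusted p is under 0.05; bars mark list medians and the dotted line the median of all 13364 genes tested. The medians against synaptoneurosome input are -0.36, -0.41 and 0.66 for the 3 lists, and against cortex TRAP 1.87, 2.46 and 2.28.

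Markers of other cell types moved with these groups. Against cortex TRAP, 9 of 10 neuron markers, 5 of 7 oligodendrocyte markers, 5 of 8 microglia markers and 4 of 8 oligodendrocyte precursor markers (2 were lower) were higher in PAP TRAP, with median log2 changes of 2.68, 2.87, 3.22 and 1.90, while 8 of 10 astrocyte markers were lower (median -1.31). Of all genes, 19.3% were higher and 14.6% lower there. The oligodendrocyte markers (such as Mbp, Mobp and Mag) held 0.649% to 0.817% of nuclear counts in PAP TRAP, 0.230% to 0.381% in synaptoneurosome input, 0.0498% to 0.0672% in cortex TRAP and 0.193% to 0.213% in cortex input. Mbp weighed most in the sum of PAP TRAP, at 2829 ± 523 normalized CPM, against 842 ± 173 in synaptoneurosome input (SD). Microglia markers held 0.0234% to 0.0348% in PAP TRAP, 0.0542% to 0.120% in synaptoneurosome input, 0.00208% to 0.00308% in cortex TRAP and 0.0108% to 0.0147% in cortex input. Precursor markers held 0.0421% to 0.0480% in PAP TRAP, 0.0465% to 0.0545% in synaptoneurosome input, 0.0524% to 0.115% in cortex TRAP and 0.0314% to 0.0350% in cortex input. Cspg5 weighed most in the sum of cortex TRAP, at 214 ± 143 normalized CPM (SD), followed by Olig1 at 75.2 ± 28.7. Against cortex input, cortex TRAP was lower for 5 of the 8 precursor markers and higher for 2, Cspg5 and Olig1 (19.5% of all genes were lower and 15.9% higher). In PAP TRAP, Aif1 was the 1 marker of these lists with a count of 0 in some library. Relative to synaptoneurosome input, 2 of 10 neuron markers were lower in PAP TRAP and none higher (median -0.29), and 2 of 8 microglia markers were lower. Of the 7 oligodendrocyte markers, Mbp was higher there (adjusted p = 0.00292), Mog was lower (adjusted p = 0.0406), and the others were not called. Over all genes, 3% were called higher and 1.53% lower in that comparison. In cortex TRAP against cortex input all 10 neuron markers were lower (median -3.19), beside a median of -0.70 for the 9 adhesion genes and 19.5% of all genes called lower. The part of these cell types in the changes of the 9 genes was not tested.

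The genes whose log2 CPM was most like each of the 9 over the 12 libraries, among the 5958 searched (mean log2 CPM of 3 or more), were Cdh2 for Nrxn2 (r = 0.978), Enpp5 for Nrxn3 (r = 0.993), Atp1b1 for Nlgn1 (r = 0.966), Lrp8 for Nlgn2 (r = 0.969), Tmem127 for Nlgn3 (r = 0.923), Syt4 for Lrrtm2 (r = 0.991), Adam15 for Lrrc4b (r = 0.871), Adgrb2 for Adgrl1 (r = 0.979) and Pcdh7 for Adgrl3 (r = 0.980). These are Pearson correlations over libraries that share group differences and depth. Nlgn1 and Nlgn2 were among the 3 most alike genes of each other (r = 0.957), the 1 such pair within the 9.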

How the data were processed

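RNA-seq counts of 12 libraries, 3 in each of 4 groups, were analysed. The deposited values are unnormalized whole-number counts of reads per gene, as the files themselves show, with rows for reads given to no gene (20.3% to 55.5% of each library), which stayed outside library sizes and tests. HTSeq, STAR, Bowtie2 and Trimmomatic 0.32 appear in the submitters' processing notes. The authors' strand setting, annotation and build were not given in the sources used here, which leaves antisense and overlapping genes uncertain. SPIA amplified cDNA from 2 ng of RNA, and 500 ng sheared to about 200 bp went into library preparation, per the labels' protocols. Without molecular identifiers counts are not independent molecules.

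Of 41388 identifiers, 40254 matched GENCODE M21 (GRCm38), the source of symbols, positions, exon length and composition. Genes were kept by filterByExpr (minimum count 10, minimum total 15). A quasi-likelihood model (edgeR 4.0.16, R 4.3.3) with TMM scaling fitted 1 mean per group to all 12 libraries. Benjamini-Hochberg adjustment ran over 13364 genes, with calls at 0.05. Intervals are 95% and come from the fit. Ratios within libraries had 0.5 added to each count and were tested by exact two-sided permutation. The fit was tested on simulated counts.

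Alternatives were RLE scaling, no filter, DESeq2 1.42.0, a fit of only the groups compared, a block for the replicate number, no mitochondrial genes, offsets corrected for G and C content (loess span 0.3, with content known for 99.4% of genes) and each library left out. The 9 genes, the partner and marker lists, the tests and the rule for named genes were chosen with earlier results of these data known. Partners were named, per comparison, as up to 3 called genes in each direction with the smallest p whose mean log2 CPM was 3 or more. 1 partner this rule picks and 1 gene of the oligodendrocyte marker list are not reported here, and that list's counts and sums leave its gene out.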

Additional observations from a re-analysis of the deposited data

Results flagged for a closer look

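For 3 of the 9 genes, the enrichment over input differed between the synaptoneurosome layer and whole tissue by a test of that difference (edgeR quasi-likelihood, Benjamini-Hochberg over all genes tested), where 20.2% of all genes were called (12.9% higher). Nrxn3 differed by 1.84 on the log2 scale (adjusted p = 0.00423), with a change of -0.36 in PAP TRAP against synaptoneurosome input and of -2.21 in cortex TRAP against cortex input. Adgrl1 differed by 1.49 (adjusted p = 0.00971), with changes of 0.65 and -0.84 in the same comparisons. Lrrtm2 differed by 1.43 (adjusted p = 0.0156), with changes of -1.0 and -2.43. All 3 kept their calls when any 1 of the 12 libraries was left out, and with offsets corrected for G and C content Lrrtm2 lost its call (adjusted p = 0.0543), while Nrxn3 (adjusted p = 0.0116) and Adgrl1 (adjusted p = 0.0461) kept theirs. In the same difference, 9 of 10 neuron markers were higher and 10 of 10 astrocyte markers were lower, and their part in the 3 results was not tested.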

How the results depend on the processing

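Counts of called genes among the 9 moved as follows. Against synaptoneurosome input, PAP TRAP had 0 calls, but 1 with RLE scaling, 2 with DESeq2, 1 with the compared groups alone (all lower, where 1.70%, 4.24% and 2.14% of all genes were called lower) and 0 to 1 with a library left out (Lrrtm2, lower, without any 1 cortex TRAP library, where 1.74% to 1.85% of all genes were called lower). In synaptoneurosome input against cortex input, 8 calls became 5 to 8 with a library left out. They were 5 without cortex input replicate 2 or 3 or synaptoneurosome input replicate 3, and Lrrtm2 was not called without a filter (adjusted p = 0.0665). Calls over all genes fell too. The share called higher was 7.26% before, and 3.75%, 3.99% and 3.93% without cortex input replicate 1, 2 or 3. It was 5.43% without synaptoneurosome input replicate 3 and 4.2% without a filter. In PAP TRAP against cortex input, 4 calls became 7 with DESeq2, with the compared groups alone and without mitochondrial genes, the added ones being Nlgn1, Nlgn2 and Nlgn3, where 13.9%, 13.4% and 12.4% of all genes were called higher, against 10.6% before. The counts for the other 3 comparisons stayed within 1.5 times under every alternative. Signs turned for changes that were not called: with composition-corrected offsets Nrxn2 (-0.14) and Lrrc4b (-0.32) against synaptoneurosome input, Lrrc4b against cortex TRAP (-0.36), Lrrtm2 against cortex input (0.53) and Nlgn2 in the difference of enrichments (-0.17), and without mitochondrial genes Lrrtm2 in PAP TRAP against cortex input (0.081). With a library left out, Lrrc4b ranged from -0.20 to 0.52 against synaptoneurosome input, -0.12 to 0.49 against cortex TRAP and -0.60 to 0.12 in the difference of enrichments, where Nlgn3 ranged from -0.46 to 0.18. The cause was not tested. Leaving out mitochondrial genes moved the median of all genes in PAP TRAP against cortex TRAP to -0.11, against -0.28 with them. Replicate numbers did not pair the libraries (same-numbered correlations 0.00575 to 0.0804, none of 18 over 0.1), although 11 of 12 libraries were most like their own number in another group, a hint from the data and not the design. With the replicate block, 0 of the 9 were called in PAP TRAP against synaptoneurosome input. Nlgn1 gained a call in PAP TRAP against cortex input (adjusted p = 0.0425), the 1 call that moved. For the 4 ratios the block says nothing, because a mean of same-numbered differences always equals the difference of group means. The block with corrected offsets was not run, since the rule for pairing was not met. The length used for Nlgn3, an alternative chosen after seeing the data, turned the order of Nlgn2 and Nlgn3 per kb. The 9 genes had 129 to 10516 counts in a library. These are reads of amplified cDNA and not independent molecules, so they do not fix the counting error.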
